A study of Mus musculus with 65 samples.

Results

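Among 31785 autosomal peaks of the chromatin insulator protein CTCF in wild-type mouse testis, 469 (1.48%, Wilson 95% interval 1.35 to 1.61%) shared at least 1 bp with a peak of the chromosome axis protein SYCP3 in the Iho1KO testis, with no HORMAD1 peak in any of the 5 genotypes listed for HORMAD1 and with no wild-type DMC1 hotspot. These 469 regions are called SYCP3-only CTCF sites here. Their Iho1KO SYCP3 overlap, their lack of HORMAD1 and their lack of hotspots are what they were chosen by and are no result. The other autosomal CTCF sites away from hotspots fell into 3 classes by the same peak lists. There were 681 sites with both SYCP3 and HORMAD1, 3411 with HORMAD1 and no Iho1KO SYCP3, and 26069 with neither. SYCP3 in these class names means the Iho1KO list alone. Another SYCP3 list held 161 of the 3411 sites with HORMAD1 (4.72%) and 67 of the 26069 with neither (0.257%). A further 1155 CTCF peaks lay at wild-type hotspots and were left out.

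The series is a chromatin immunoprecipitation and sequencing study of meiotic chromosome axis and recombination proteins in whole testes of mice whose germ cells entered meiosis together. Per the labels' protocols, the male pups received WIN 18,466, which blocks retinoic acid, for 7 to 10 days from the age of 1.5 days, and then 1 injection of retinoic acid. Testes were collected 8 days later, when 80 to 95% of cells were leptotene or zygotene spermatocytes. The groups used were wild type (C57BL/6JCrl), B6;129P2-Prdm9tm1Ymat/J (Prdm9KO), Spo11tm1Mjn (Spo11KO), Mei4tm1Bdm (Mei4KO), Iho1tm1.2Atot (Iho1KO) and Hormad1tm1.2Atot (Hormad1KO), all given the same treatment and the same background label. Whole testis also holds somatic cells, and peak positions offer no marker genes against which the labelled cell stage could be checked. Each antibody and genotype gave 1 list of peaks. The SYCP3 lists of Iho1KO, Spo11KO and Prdm9KO each belong to a group of 1 sample, and those of the wild type, Mei4KO and Hormad1KO to groups of 2 samples. No list can therefore be compared with a second one of its own group, and all intervals below cover the counting of sites only, with sites treated as independent. Sequencing depth is unknown for every list.

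In meiotic prophase, each chromosome is folded into loops attached to a protein axis. SYCP3 is a structural component of that axis, and HORMAD1 is an axis protein that recruits IHO1, which in turn works with MEI4 to allow SPO11 to make DNA double-strand breaks. PRDM9 marks the sites of most breaks in mouse, and DMC1 binds the single-stranded DNA at broken sites. CTCF is a zinc-finger protein that binds a long sequence motif and, with cohesin, sets the bases of chromatin loops in somatic cells. It also binds at many gene promoters.

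Most SYCP3-only sites lay at promoters, so the sequences that describe them best are promoter sequences. RefSeq promoter sequences (GRCm38.p6, the assembly that mm10 is built on) were searched on both strands for the core of the CTCF motif and for short motifs of promoter-binding factors: CATGCGC (NRF1), CCGGAAG (ETS factors), GGGCGGG (SP factors), CCAAT (NFY), TGACGTC (cyclic AMP response element) and AAGATGG (YY1). Each sequence below is the 250 bases before a gene start, 5′ to 3′ on the gene's strand, and capitals mark matches to the CTCF, NRF1, ETS or SP motif on either strand. A promoter counted as lying at a SYCP3-only site where its 300 bases (250 before the start and 50 after) shared at least 1 bp with the site, which held for 450 promoters of 382 genes. Those shown come from the 139 of these 450 whose 250 bases lie outside every annotated gene. The first 4 belong to sites found in the most other SYCP3 lists.
Eif3f, chr7:108934165-108934414, plus strand: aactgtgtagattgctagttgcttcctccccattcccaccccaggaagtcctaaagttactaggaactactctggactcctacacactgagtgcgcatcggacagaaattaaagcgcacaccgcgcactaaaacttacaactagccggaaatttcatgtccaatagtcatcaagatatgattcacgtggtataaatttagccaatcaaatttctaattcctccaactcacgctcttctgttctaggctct
Nudt8, chr19:4000330-4000579, plus strand: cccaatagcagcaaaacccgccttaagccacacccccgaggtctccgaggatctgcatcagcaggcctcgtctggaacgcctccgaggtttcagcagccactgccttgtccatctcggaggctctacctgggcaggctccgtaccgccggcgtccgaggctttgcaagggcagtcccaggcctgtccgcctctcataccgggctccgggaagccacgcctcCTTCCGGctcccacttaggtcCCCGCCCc
Cgrrf1, chr14:46831884-46832133, plus strand: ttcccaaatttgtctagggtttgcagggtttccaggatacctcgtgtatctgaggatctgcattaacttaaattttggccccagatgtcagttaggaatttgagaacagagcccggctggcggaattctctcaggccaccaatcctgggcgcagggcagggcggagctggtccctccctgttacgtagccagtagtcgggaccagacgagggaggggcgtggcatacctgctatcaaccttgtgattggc
Actl6a, chr3:32708296-32708545, plus strand: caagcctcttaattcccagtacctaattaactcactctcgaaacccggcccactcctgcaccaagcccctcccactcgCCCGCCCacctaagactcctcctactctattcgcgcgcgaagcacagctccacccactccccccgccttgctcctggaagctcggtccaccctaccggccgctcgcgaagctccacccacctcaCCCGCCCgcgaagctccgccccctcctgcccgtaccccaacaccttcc

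The next 3 are the promoters of that set with a CTCF core in the 250 bases, ordered by the CTCF score of their site, and were chosen after the search.
Scap, chr9:110333038-110333287, plus strand: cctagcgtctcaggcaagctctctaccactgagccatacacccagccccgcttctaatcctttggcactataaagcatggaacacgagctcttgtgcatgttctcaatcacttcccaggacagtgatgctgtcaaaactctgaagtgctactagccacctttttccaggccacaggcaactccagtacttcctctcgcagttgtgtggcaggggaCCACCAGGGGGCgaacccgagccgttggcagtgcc
Tbx6, chr7:126781233-126781482, plus strand: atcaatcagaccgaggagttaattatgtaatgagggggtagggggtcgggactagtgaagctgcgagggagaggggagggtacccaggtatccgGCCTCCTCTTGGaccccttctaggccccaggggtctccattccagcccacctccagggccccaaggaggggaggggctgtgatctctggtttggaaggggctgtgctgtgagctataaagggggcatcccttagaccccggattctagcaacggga
Phlpp1, chr1:106171619-106171868, plus strand: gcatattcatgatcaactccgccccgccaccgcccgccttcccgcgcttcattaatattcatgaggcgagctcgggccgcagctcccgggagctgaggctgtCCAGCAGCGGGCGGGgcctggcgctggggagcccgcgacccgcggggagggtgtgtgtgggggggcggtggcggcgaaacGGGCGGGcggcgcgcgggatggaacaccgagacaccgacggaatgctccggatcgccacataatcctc
In Scap, which encodes a sterol-sensing escort protein of transcription factors, the CTCF core covers bases 216 to 227 of those shown. In Tbx6, a T-box transcription factor gene, it covers bases 95 to 106 and lies on the opposite strand. In Phlpp1, a phosphatase gene, it covers bases 103 to 114 and overlaps an SP match at bases 111 to 117. The Eif3f and Cgrrf1 promoters hold none of the 4 marked motifs. In Nudt8 an ETS match covers bases 222 to 228 and an SP match bases 243 to 249, and in Actl6a SP matches cover bases 79 to 85 and 203 to 209. A match is a description of the letters and not a measured binding site.

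Few promoters of any set held the CTCF core. Only the 300 bases were searched and not the CTCF peaks, whose median width was 2533 bp at SYCP3-only sites. A core elsewhere in a peak is therefore not counted. The core was present in 14 of 450 promoters at SYCP3-only sites (3.11%, interval 1.86 to 5.15%), against 2.39% of all 20085 protein-coding promoters examined. Promoters that overlapped a CTCF peak without Iho1KO SYCP3 held it in 4.92% (difference −1.81 percentage points, Newcombe 95% interval −3.36 to 0.378), so no difference was detected. A set of 2269 promoters with Iho1KO SYCP3 and no CTCF peak held it in 3.31% (difference −0.194 points, −1.69 to 1.95). This set and the set of 2500 promoters with CTCF and no Iho1KO SYCP3 do not take in every such promoter. The motif shares and median CpG counts below use these same 2 sets. A promoter at a SYCP3-only site was counted by its overlap with the CTCF peak. It need not share a base with the SYCP3 peak itself, and the part of this in the differences was not tested. Among the short motifs of general promoter factors, those of SP and ETS factors stood out by their shares. GGGCGGG stood in 52.7% of promoters at SYCP3-only sites, 61.8% of SYCP3 promoters without CTCF, 38% of CTCF promoters without SYCP3 and 34.5% of all promoters. The first of these shares differed from the second by −9.17 points (−14.2 to −4.17) and from the third by 14.6 points (9.63 to 19.6). The ETS motif stood in 25.1% of promoters at SYCP3-only sites and was more frequent there than in SYCP3 promoters without CTCF (19.3%, difference 5.76 points, 1.62 to 10.3) and in CTCF promoters without SYCP3 (18.4%, difference 6.71 points, 2.61 to 11.2). Of all promoters, 11.9% held it. The NRF1 motif (9.33%) and the YY1 motif (9.56%) were each above their shares in CTCF promoters without SYCP3 (6.48% and 6.88%), by 2.85 points (0.282 to 6.03) and 2.68 points (0.0667 to 5.88). Neither differed detectably from SYCP3 promoters without CTCF (9.12% and 6.96%). For CCAAT (33.8%) and TGACGTC (6.89%) no difference from either set was detected. Over all promoters the shares were 4.84% for NRF1, 6.29% for YY1, 38.1% for CCAAT and 3.92% for TGACGTC, so CCAAT was the 1 motif with a lower share at SYCP3-only sites than over all promoters. These are 14 comparisons, not adjusted for their number. They treat promoters as independent, although the 450 belong to 382 genes, the 2269 to 1973 and the 2500 to 2170. The intervals may therefore be too narrow.

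CpG content separated these promoter sets more clearly. Promoters at SYCP3-only sites held a median of 26 CpG dinucleotides in 300 bases (quartiles 19 to 33). SYCP3 promoters without CTCF held 29 (22 to 36), CTCF promoters without SYCP3 held 17 (11 to 24), and promoters with neither held 7 (3 to 20). The SP, ETS and NRF1 motifs and TGACGTC each contain a CpG, and the motif shares above were not matched for CpG count. The part of CpG count in those shares was not tested. Across all 20085 promoters, the share with an Iho1KO SYCP3 peak climbed with CpG count whether or not a CTCF peak was present. With a CTCF peak of any class it was 2.59% in the lowest quartile group by CpG count (5 of 193 promoters), then 7.33%, 16.4% and 38.9% in the highest group (308 of 792). Without a CTCF peak it was 0.563%, 6.12%, 24.3% and 47.4%. In the highest group the share with CTCF, 38.9% (35.6 to 42.3%), stood below the share without, 47.4% (45.8 to 48.9%). Over all groups the shares were 18.8% (586 of 3122) and 17.9% (3029 of 16963). These counts take every promoter with an Iho1KO SYCP3 peak, so they are wider than the sets of 450 and 2269 promoters above.

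**Figure D1:**
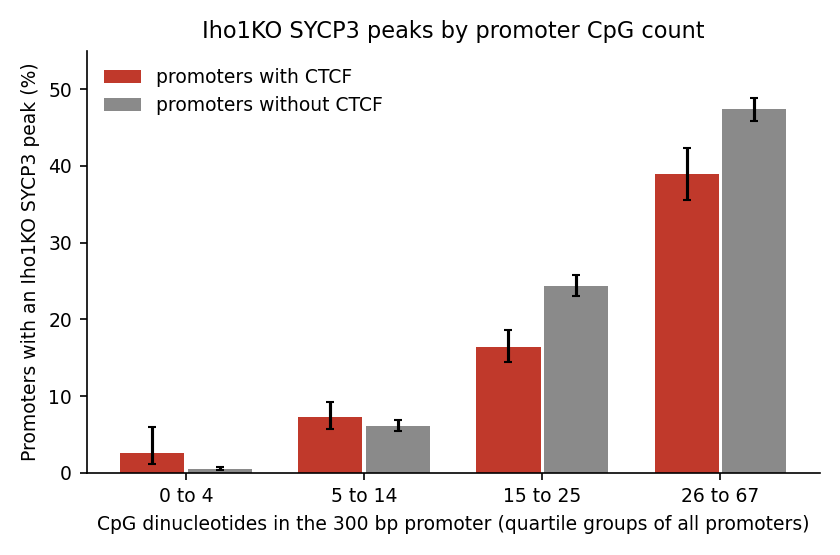
Share of protein-coding promoters (%) with an Iho1KO SYCP3 peak, by the number of CpG dinucleotides in the 300 bp promoter, in quartile groups of all promoters, for promoters with and without a CTCF peak. Bars start at 0 and lines are Wilson 95% intervals. The share climbs with CpG count in both sets and reaches 38.9% with CTCF and 47.4% without.

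The SYCP3-only sites stood out by where they lay. A gene start within 1 kb was found for 347 of 458 sites (75.8%, 71.6 to 79.5%) on the 18 autosomes with listed starts. The 11 sites on the autosome without listed starts were not used here for gene context. Among all CTCF peaks of those autosomes, 8.90% were at a start. Sites with both SYCP3 and HORMAD1 were at starts in 12.7% (84 of 663), sites with HORMAD1 alone in 6.39% (210 of 3288) and sites with neither in 7.37% (1861 of 25240). The SYCP3-only share was higher by 63.1 points (58.1 to 67.5), 69.4 points (65.2 to 73.2) and 68.4 points (64.2 to 72.1) than these 3. Of the remaining SYCP3-only sites, 71 (15.5%) lay within 1 kb of another annotated gene end. For 62 of those 71, the nearest gene has no entry in the promoter table. On all 19 autosomes, 405 of 469 sites (86.4%) lay within 1 kb of either end of a protein-coding gene, against 15.0% of all autosomal CTCF peaks. Only 23 sites (5.02%) lay inside a gene away from its ends and 17 (3.71%) elsewhere. Sites with both proteins had the opposite layout, with 53.8% away from any gene and 21% inside one.

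**Figure D2:**
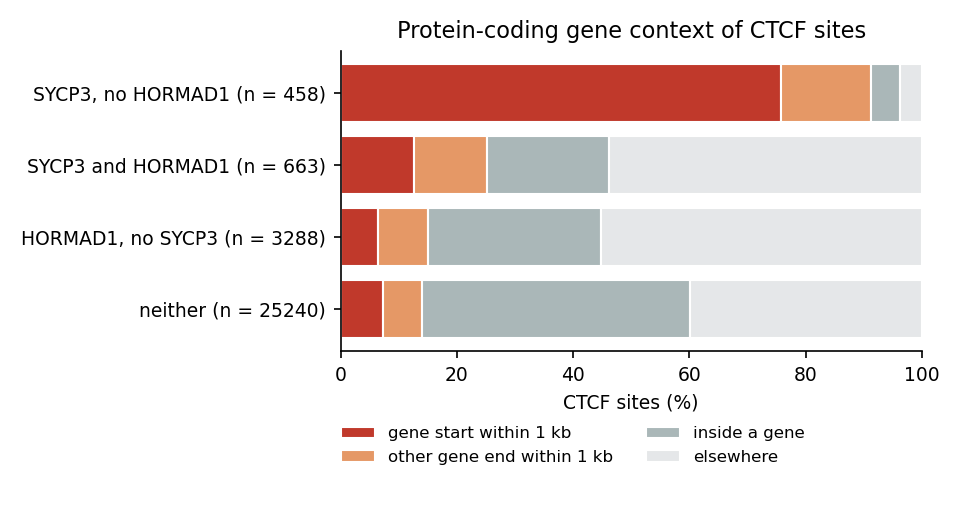
Share of CTCF sites (%) in each of 4 gene contexts for the 4 classes of autosomal CTCF sites; the segments of a bar add to 100%. A gene start lies within 1 kb of 75.8% of sites with SYCP3 and no HORMAD1, and of 12.7% or fewer in the other classes.

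The position relative to the start differed between the 2 proteins. The centre of the CTCF peak lay within 1 kb of a start for 298 SYCP3-only sites (65.1%), at a median of 48 bp downstream (quartiles −238 to 371 bp), and 55% of those centres were downstream. The centre of the Iho1KO SYCP3 peak at the same sites lay within 1 kb of a start for 339 (74.0%), at a median of 152 bp downstream (quartiles 21 to 254 bp), and 77.6% were downstream. SYCP3 peaks without CTCF had nearly the same layout, with a median of 168 bp downstream and 81.7% of centres downstream. The CTCF peaks of SYCP3-only sites were wide (median 2533 bp), and 367 of the 470 SYCP3 peaks concerned (median width 1052 bp) lay wholly inside the CTCF peak. The centres of the 2 peaks of a site lay a median of 380 bp apart (quartiles 184 to 738 bp).

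**Figure D3:**
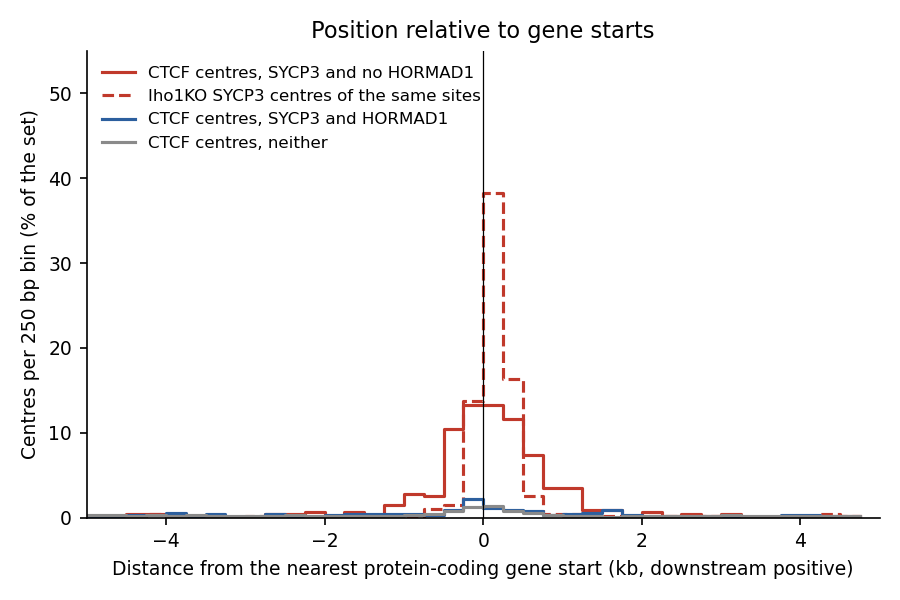
Distance (kb, downstream positive) from the nearest protein-coding gene start to the peak centre, in bins of 250 bp, as a percentage of each set. The SYCP3 centres of SYCP3-only sites pile up just downstream of starts (median 152 bp), while their CTCF centres spread to both sides (median 48 bp) and the CTCF centres of sites with both proteins and with neither are few near starts.

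Some of these starts came in pairs. Starts of at least 2 genes on opposite strands lay within 1 kb of 44 of the 347 SYCP3-only sites at starts (12.7%). The same held for 7.85% of start sites with neither protein (difference 4.83 points, 1.47 to 8.91) and for 4.76% of start sites with HORMAD1 alone (7.92 points, 3.03 to 12.4). At SYCP3 peaks without CTCF the share was 8.47% (4.21 points, 0.830 to 8.29). Those starts were counted from the SYCP3 peak and not from a CTCF peak. The median width of all such SYCP3 peaks, at starts or not, was 1116 bp, so the reach differed too. Start sites with both proteins had 16.7% (14 of 84), and no difference was detected (−3.99 points, −13.9 to 3.58). Examples of such paired starts are Banf1 with Eif1ad on chromosome 19, where Banf1 encodes a DNA-bridging protein of the nuclear envelope, and Ska3 with Mrpl57 on chromosome 14, where Ska3 encodes a kinetochore protein. A wider CTCF peak can reach more starts. Median widths at starts were 2533 bp for SYCP3-only sites, 2263 bp for sites with neither, 3540 bp for sites with HORMAD1 alone and 3760 bp for sites with both. The part of width was not tested.

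Looked at from the SYCP3 side, a CTCF peak made no detectable difference to promoter location. Of Iho1KO SYCP3 peaks free of HORMAD1 and hotspots, 351 of 473 with a CTCF peak lay at gene starts (74.2%), and 1888 of 2514 without one (75.1%, difference −0.892 points, −5.34 to 3.22). Of all Iho1KO SYCP3 peaks of these autosomes, 58.5% were at starts. From the CTCF side, the presence of a start went with SYCP3. Among CTCF peaks with no HORMAD1 and no hotspot, 15.7% of those at starts (347 of 2208) and 0.473% of those away from starts (111 of 23490) had an Iho1KO SYCP3 peak.

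The CTCF score is the authors' own value for each peak, of a kind the files do not name, and it is used here only to rank peaks within the list. SYCP3-only sites had a median score of 1.99 (quartiles 1.54 to 2.79), close to the median of all autosomal peaks, 1.92. Sites with both proteins had 3.68 (2.69 to 4.75), sites with HORMAD1 alone 3.23 (2.30 to 4.17) and sites with neither 1.75 (1.21 to 2.63). A score above the autosomal median, which 50% of all autosomal peaks had by construction, was found for 247 of 469 SYCP3-only sites (52.7%, 48.1 to 57.1%). The difference was −36.5 points from sites with both proteins (89.1%, −41.5 to −31.3) and −31 points from sites with HORMAD1 alone (83.7%, −35.7 to −26.4).

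Against sites with neither protein, the share was 8.36 points higher (44.3% there, 3.8 to 12.9). That difference did not hold within gene context or width. At gene starts it was 3.06 points (−2.66 to 8.70), away from starts 0.357 points (−8.55 to 9.66), and among CTCF peaks between the width quartiles of the SYCP3-only sites it turned to −15.5 points. The gap to sites with both proteins was smaller at starts, where it was −13.1 points (−23.5 to −1.33), than away from starts, where it was −48.1 points (−57.2 to −38.5), and these intervals do not overlap. Within CTCF start sites free of HORMAD1, the share with Iho1KO SYCP3 was lowest in the lowest quartile group of scores, at 10.5% (8.22 to 13.3%). It was 19.9% (16.8 to 23.5%), 16.7% (13.8 to 20%) and 15.8% (13 to 19%) in the groups above it, whose intervals overlap each other.

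**Figure D4:**
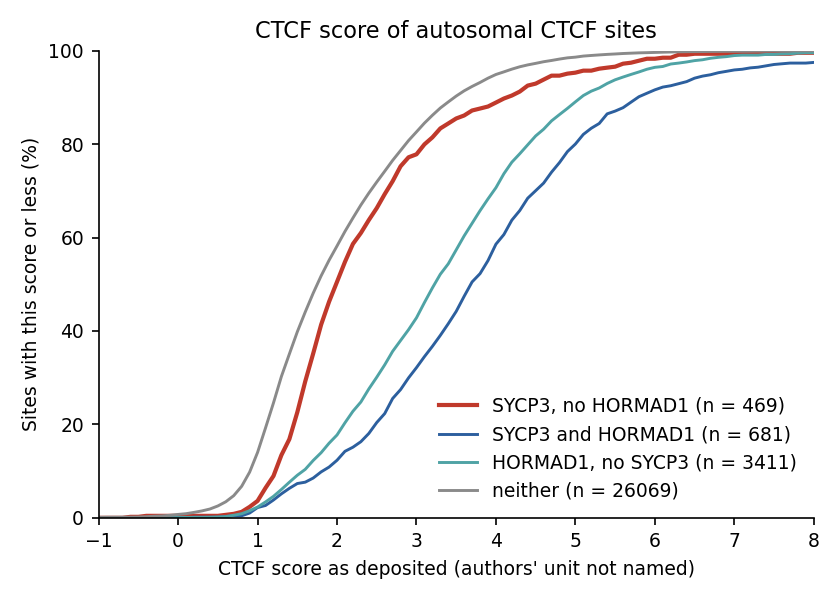
Cumulative share of sites (%) by the deposited CTCF score, whose unit is not named, for the 4 classes of autosomal CTCF sites, drawn from −1 to 8. The curve of sites with SYCP3 and no HORMAD1 (median 1.99) runs near that of sites with neither (1.75) and left of both classes with HORMAD1 (3.23 and 3.68).

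The highest scores among SYCP3-only sites were at the starts of Ddx18, an RNA helicase gene (score 9.67), Denr, a translation re-initiation factor gene (8.43), Rpl5, a ribosomal protein gene (7.78), Zfp560, a zinc-finger gene (6.47), and Fitm2, a gene of lipid droplet formation (6.28). The site at Ddx18 spans chr1:121566960-121569449, holds an SYCP3 peak of 799 bp, and was in the SYCP3 lists of Spo11KO and Mei4KO and the IHO1 lists of Spo11KO and Hormad1KO. Denr (chr5:123905989-123908380) and Rpl5 (chr5:107898754-107901995) were in the same 2 SYCP3 lists and in no IHO1 list. Zfp560 (chr9:20384691-20386004) was in none of the 5 other SYCP3 lists. Among the lowest scores were −0.684 at a site whose nearest gene is Atf2, −0.470 at a start of Clybl, a mitochondrial lyase gene, 0.517 at a start of Wiz and 0.760 at the start of Usp25, a deubiquitinase gene. These 4 sites were in none of the 5 other SYCP3 lists.

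The other SYCP3 lists were not used by the rule. All SYCP3 lists share 1 subtracted control, the SYCP3 signal of the Sycp3tm1Hoog (Sycp3KO) testis, so their agreement with each other is not independent. In the wild type, 2 of 469 SYCP3-only sites had a SYCP3 peak (0.426%, 0.117 to 1.54%), against 282 of 681 sites with both proteins (41.4%) and 1.49% of all autosomal CTCF peaks. The 2 sites are nearest Myl2 (chr5:122113285-122118638), a myosin light chain gene, and Wdr34 (chr2:30029834-30036232), a dynein chain gene, and were named after their values were seen. The difference from sites with both proteins was −41.0 points (−44.7 to −37.2). Of sites with HORMAD1 and no Iho1KO SYCP3, 88 of 3411 (2.58%) had a wild-type SYCP3 peak. Shares over all CTCF peaks, for this and the other lists, include those at wild-type hotspots. A site outside a list has no called peak there, and the lists give no peak strength.

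The shares differed between the lists of the mutants. In Hormad1KO, 9 SYCP3-only sites had a SYCP3 peak (1.92%, 1.01 to 3.61%), against 41.3% of sites with both proteins (−39.3 points, −43.2 to −35.3) and 1.29% of all CTCF peaks. In Prdm9KO it was 23 sites (4.90%, 3.29 to 7.25%), against 13.4% (−8.46 points, −11.7 to −5.14), with a background of 0.535%. In Mei4KO it was 73 sites (15.6%, 12.6 to 19.1%), against 30.4% (−14.8 points, −19.5 to −9.95), with a background of 1.17%. In Spo11KO it was 146 sites (31.1%, 27.1 to 35.5%), and sites with both proteins had 31.3%, with a background of 1.76%. The Spo11KO difference was −0.147 points (−5.53 to 5.34), so a difference of up to about that size in either direction cannot be seen.

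**Figure D5:**
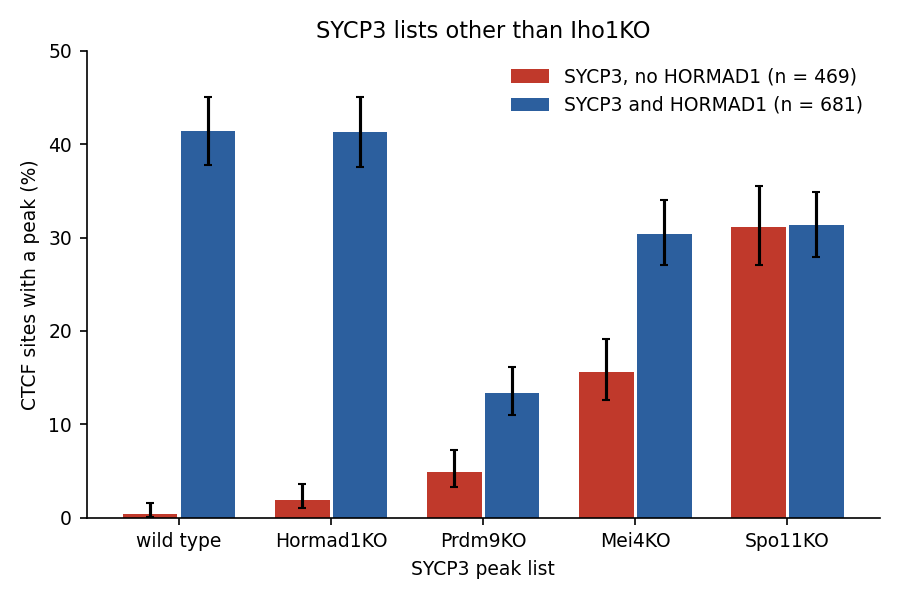
Share of CTCF sites (%) with a peak in each of the 5 SYCP3 lists not used to choose them, for sites with SYCP3 and no HORMAD1 and for sites with both; lines are Wilson 95% intervals. The Spo11KO shares lie side by side at 31.1% and 31.3%, whereas in the wild type 0.426% stand against 41.4%.

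The lists differ in length, which limits how these shares can be read across genotypes: the autosomal SYCP3 lists hold 5309 peaks in Iho1KO, 2330 in Spo11KO, 1847 in the wild type, 1109 in Mei4KO, 786 in Hormad1KO and 576 in Prdm9KO. Of all autosomal Iho1KO SYCP3 peaks, 28.5% had a peak in Spo11KO, 17.8% in Mei4KO, 12.1% in the wild type, 10.9% in Hormad1KO and 9.04% in Prdm9KO. The SYCP3-only sites were thus near this background in Spo11KO and Mei4KO and below it in the wild type, Hormad1KO and Prdm9KO. The wild-type list is longer than the Mei4KO list, yet fewer SYCP3-only sites were in it (2 against 73).

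Within each gene context some of these calls differed from the pooled ones, and the difference between the contexts was not tested. Among sites at starts, SYCP3-only sites were in the Spo11KO list less often than sites with both proteins (114 of 347, 32.9%, against 41 of 84, 48.8%, difference −16.0 points, −27.5 to −4.37), and for Prdm9KO the difference was no longer detected (−2.86 points, −11.0 to 2.29). Away from starts, 28 of 111 SYCP3-only sites (25.2%) were in the Spo11KO list, against 29.4% (−4.14 points, −12.3 to 5.37). None of the 347 sites at starts was in the wild-type list, against 14 of 84 with both proteins.

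Within the Iho1KO SYCP3 peaks free of HORMAD1 and hotspots, those with a CTCF peak were found more often in 3 of the 5 other lists. In Spo11KO the shares were 30.9% with CTCF and 22.0% without (difference 8.83 points, 4.50 to 13.4), and at gene starts 32.5% and 22.1% (10.3 points, 5.27 to 15.7). In Prdm9KO they were 4.86% and 3.02% (1.84 points, 0.0741 to 4.24), and in Hormad1KO 1.69% and 0.636% (1.05 points, 0.134 to 2.68). In Mei4KO they were 15.6% and 12.9% (2.76 points, −0.536 to 6.52) and in the wild type 0.634% and 0.756% (−0.122 points, −0.715 to 1.12). SYCP3 peaks with CTCF had a median width of 1058 bp and those without 1116 bp, and the part of peak width in these differences was not tested.

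At least 1 other SYCP3 list held 161 of the 469 sites (34.3%, 30.2 to 38.7%). The share was 64.8% (441 of 681) for sites with both proteins, which also have an Iho1KO SYCP3 peak. It was 3.17% for all autosomal CTCF peaks, whether or not they have one. Of the 469 sites, 308 were in no other SYCP3 list, 87 in 1, 58 in 2, 14 in 3 and 2 in 4. The site nearest Cpsf1, which encodes a subunit of the mRNA polyadenylation complex (chr15:76605868-76610227, CTCF score 4.20), was in the SYCP3 lists of Prdm9KO, Spo11KO, Mei4KO and Hormad1KO and in 4 IHO1 lists. The site at the paired start of Ska3 and Mrpl57 (chr14:57825518-57827872, score 1.97) was in the same 4 SYCP3 lists and in 2 IHO1 lists. Sites at Eif3f (chr7:108932541-108935709), a translation initiation factor gene, Slc39a13 (chr2:91067645-91073498), a zinc transporter gene, Nudt8 (chr19:3998428-4001853), a Nudix hydrolase gene, and Banf1 (chr19:5365118-5368723) were in 3. So were sites at Cgrrf1 (chr14:46831809-46833207), a ring finger gene, Actl6a (chr3:32708136-32709603), which encodes an actin-related subunit of chromatin remodellers, Pold3 (chr7:100120833-100122125), which encodes a subunit of DNA polymerase delta, and Arhgap35 (chr7:16485894-16494936), which encodes a GTPase-activating protein. Their scores ran from 1.99 at Pold3 to 5.84 at Eif3f. All 10 of these sites were in the Spo11KO list, 9 of 10 in the Prdm9KO list, and none was in the wild-type list. Over all 469 sites the shares were 31.1%, 4.90% and 0.426%. The 10 were picked for being in the most of these lists, with ties settled by the higher CTCF score. Their high list membership is therefore no result, and their score range depends on the choice.

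A few SYCP3 peaks were broad domains. The widest at a SYCP3-only site was 39537 bp (chr13:119707839-119747375), around a CTCF peak whose nearest gene is Nim1k, a kinase gene. The next were 18205 bp nearest Gm46390 (chr13:119795212-119813416), 18074 bp at Arhgap35 (chr7:16475314-16493387), 8800 bp at Gm35549 and 7371 bp at Wdr34. The CTCF peaks inside the 2 domains on chromosome 13 lay 564 and 71 bp from the nearest HORMAD1 peak, and the domains themselves overlapped HORMAD1 peaks. They are the only 2 of the 470 SYCP3 peaks at SYCP3-only sites that did, since the rule asks for no HORMAD1 at the CTCF peak and not across the SYCP3 peak. How reads from repeated sequence were treated there is not given in the sources used here.

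IHO1 was at far fewer SYCP3-only sites than sites with both proteins, and at more of them than sites with neither. An IHO1 peak of any of 5 genotypes was at 17 of 469 (3.62%, 2.28 to 5.73%), against 3.41% of all autosomal CTCF peaks. All CTCF peaks include the 1155 at wild-type hotspots, which the rule removes. Sites with both proteins had one in 61.8% (difference −58.2 points, −62.0 to −53.9), sites with HORMAD1 alone in 10.7% (−7.05 points, −8.78 to −4.72) and sites with neither in 0.176% (3.45 points, 2.10 to 5.55). By list, IHO1 was at 10 sites in Spo11KO, 7 in Mei4KO, 6 in the wild type, 3 in Hormad1KO and 1 in Prdm9KO. The background over all CTCF peaks was 1.71%, 1.86%, 1.51%, 0.450% and 0.680%. The 3 sites in Hormad1KO are at Ddx18, Cpsf1 and Brpf1, which encodes a subunit of a histone acetyltransferase complex, and the 1 in Prdm9KO is nearest Palld, an actin-binding protein gene. These 4 were named after their values were seen.

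MEI4 was at 3 of 469 sites (0.640%, 0.218 to 1.86%), all in the Hormad1KO list, against 1.30% of all autosomal CTCF peaks. In each of the other 4 MEI4 lists it was at 0 of 469, which allows a share of up to 0.640% when the limit is set at 3 sites, and of 0.812% by the Wilson interval. Over all CTCF peaks, MEI4 was at 0.437% in the wild type, 0.0220% in Prdm9KO, 0.997% in Spo11KO, 0.664% in Iho1KO and 0.912% in Hormad1KO. Sites with both proteins had a MEI4 peak in 1.76% (difference −1.12 points, −2.48 to 0.314), so no difference was detected at these counts. Sites with HORMAD1 alone had one in 0.0586% (difference 0.581 points, 0.132 to 1.81) and sites with neither in 0.0882% (0.551 points, 0.127 to 1.78), both below the SYCP3-only share. These calls rest on 3 sites, and at gene starts alone neither was called (0.288 points each). The share over all CTCF peaks includes the 1155 at wild-type hotspots, which the rule removes. Of the 3 sites, 1 is at a start of Sh3glb2, 1 lies nearest Cacna2d2, a calcium channel subunit gene, and 1 is on chromosome 18, where gene starts were not used here. The Cacna2d2 site is also 1 of 3 sites at a DMC1 hotspot of Hormad1KO, with those at the starts of Tpmt and Stard7. All CTCF peaks, those at wild-type hotspots included, were at such hotspots in 1.09%. Among the classes without wild-type hotspots the shares were 0.640% (0.218 to 1.86%) for SYCP3-only sites, 0.147% for sites with both proteins, 0.147% for sites with HORMAD1 alone and 0.0652% for sites with neither. These sites were also named after their values were seen.

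Genes with a SYCP3-only site at a start numbered 393 of 16457 protein-coding genes (2.39%). Among gene lists chosen for this tissue, ribosomal protein genes had 6 of 66 (9.09%): Rpl5, Rpl11, Rpl22, Rps15, Rps15a and Rps3a1. Their CTCF scores ran from 0.830 at Rpl22 to 7.78 at Rpl5. Rpl5, Rps15 and Rps15a were in the SYCP3 lists of both Spo11KO and Mei4KO, Rpl11 in that of Spo11KO, and Rpl22 and Rps3a1 in neither. Ribosomal protein genes with any Iho1KO SYCP3 peak at a start were 31.8%, against 20% of all genes, and those with a CTCF peak were 31.8%, against 18%. The proteasome genes had 1 of 42 (Psmb4), and the replication-dependent histone genes 2 of 62, which share 1 site between H2bc18 and H3c13. Near-identical histone copies make the position of reads there uncertain.

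Few of the meiotic genes had such a site, and few genes of any kind did (2.39%). Of 17 genes of the axis and synapsis list with a listed start, 1 had a SYCP3-only site, Syce2, which encodes a central element protein of the synaptonemal complex. That site (chr8:84870956-84873606) had a CTCF score of 2.19 and was in the SYCP3 lists of Spo11KO and Mei4KO. None of 10 break formation genes, 18 break repair genes, 10 genes of meiotic entry and the germline, 6 chromatin architecture genes, 9 replication licensing genes or 22 Hox genes had one. The share over all genes was 2.39%, and nothing particular to these small lists is read from it. Iho1KO SYCP3 peaks without regard to CTCF were at 20% of all genes. They were at 7 of the 17 axis genes, 1 of 10 break formation genes, 5 of 18 repair genes, 4 of 10 meiotic entry genes, 5 of the 6 architecture genes, 1 of 9 licensing genes, 10 of 42 proteasome genes, 30 of the 62 histone genes and 4 of 22 Hox genes.

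At the edges of the rule, the smallest SYCP3 overlap among the 469 sites was 20 bp and the median 1015 bp, and 2 sites overlapped by under 100 bp. No site with neither protein lay within 100 bp of an Iho1KO SYCP3 peak, and 64 lay within 1 kb. The gap to the nearest HORMAD1 peak ran from 71 bp to a median of 48364 bp, with 7 sites within 1 kb and 40 within 5 kb. Of the sites with both proteins, 115 were in only 1 HORMAD1 list. Leaving 1 HORMAD1 list out of the rule would give 475 to 528 sites, the most without the Mei4KO list, and the wild-type HORMAD1 list alone would give 801.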

How the data were processed

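Chromatin of synchronised whole testes was measured by chromatin immunoprecipitation and sequencing, and 24 peak lists, 1 for each antibody and genotype, were used. Bowtie2 and MACS2 and the build mm10 are named in the submitters' processing notes, with no role, version or threshold. A subtraction was made by the authors before deposit, per the design text: each protein's data were corrected by the same antibody in that protein's knockout. Whether replicates were pooled is not given in the sources used here. The deposited MEI4, IHO1, HORMAD1 and SYCP3 files hold peak coordinates alone, so no test on peak strength was possible, and the CTCF file adds a score by the authors, written with a decimal comma and of an unnamed kind. It was used for ranks within the list. A subtraction or a broader peak call changes which sites share a base with a peak.

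Peaks were compared by position with Python 3.11.15, numpy 2.4.6 and pandas 2.3.3, with coordinates counted from 1 and an overlap of at least 1 bp. Shares have Wilson 95% intervals and differences of shares Newcombe 95% intervals, and a difference was called where its interval excluded 0. No p-value was computed. The scripts were tested on simulated data. Gene starts are those of 20085 RefSeq promoter entries of protein-coding genes (GRCm38.p6), widened by 1 kb. Gene starts of 1 autosome were not used here. All peak columns were mapped to 1 group, and 36 groups with 65 samples were read from the labels, of which 12 without a list were not used here. Named sites are the 10 in the most other SYCP3 lists, the 5 highest and 5 lowest in CTCF score, the 5 with the widest SYCP3 peak, and those at starts of the gene lists. Of these, 1 site is not reported here. The sites, gene lists and comparisons were chosen with earlier results of these data known. The alternatives changed the overlap, the CTCF interval and score, the margin and kind of gene start, the hotspots, the distance to HORMAD1 and the gene context. CTCF peaks of like width and either gene end in place of starts were added after seeing the data.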

Additional observations from a re-analysis of the deposited data

How the results depend on the processing

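Of 171 values under alternative settings, 148 were classed as unchanged. For differences this means the same direction and the same side of the threshold. Of the 148, 6 are counts of sites, to which neither applies. Keeping 1 site per Iho1KO SYCP3 peak left all 469 sites, and leaving out Hormad1KO DMC1 hotspots left 466. Such settings could change little, so their unchanged values add little to the 148. The share of SYCP3-only sites at gene starts stayed above that of each other class, and their wild-type, Hormad1KO and Mei4KO SYCP3 shares stayed below those of sites with both proteins, under every alternative run. Among CTCF peaks between the width quartiles of the SYCP3-only sites, the score difference from sites with neither protein reversed to −15.5 points. It was 3.06 points at gene starts and 0.357 points away from them, no longer called. At gene starts the Prdm9KO difference was −2.86 points (no longer called) and the Spo11KO difference −16.0 points (now called). The uncalled Spo11KO difference changed sign to 2.39 points with a 200 bp window at the CTCF centre, 0.191 points without sites within 5 kb of HORMAD1, 0.357 points with an overlap of 50% of the shorter interval and 4.50 points in the upper 50% of scores. Away from starts, IHO1 against sites with HORMAD1 alone was −3.32 points, no longer called. The MEI4 differences rest on 3 sites. Against HORMAD1 alone they lost the call at 0.250 points (200 bp window), 0.288 points (starts) and 0.349 points (50% overlap), and against neither at 0.288 points (starts). Against both they were −3.28 points at starts, now called, and 0.151 points in the upper 50% of scores. For SYCP3 peaks with and without CTCF, the uncalled difference at starts became 1.76 points with either gene end, 0.594 with a margin of 5 kb, 0.469 with none and 1.85 in the wider 50% of SYCP3 peaks. The number of sites was 235 in the width-matched set, 111 away from starts and 247 in the upper 50% of scores, which follows from using fewer CTCF peaks. It was 328 with the 200 bp window and 347 at starts, against 469 in the main setting, and these 2 counts were classed as unchanged. The other causes were not tested. No paired analysis was possible because each group has 1 list, with no columns per replicate, and leaving out a replicate could not be run for the same reason. Peak lists without strength or depth limit every absence to the lack of a called peak.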

Other observations

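SYCP3-only sites were spread over all 19 autosomes, from 0.956% of the CTCF peaks of chromosome 14 (12 of 1255, interval 0.548 to 1.66%) to 2.01% of those of chromosome 9 (38 of 1888, 1.47 to 2.75%), and the intervals of these 2 extremes overlap. The distance to the next CTCF peak had a median of 13287 bp at SYCP3-only sites, 11142 bp at sites with both proteins and 13603 bp at sites with neither.

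By width as by score, the lowest group of CTCF start sites had the smallest share with SYCP3. Among CTCF start sites with no HORMAD1 and no hotspot, an Iho1KO SYCP3 peak was present in 9.06% (6.94 to 11.7%) of the narrowest quartile group, and in 17.9%, 17.2% and 18.7% of the wider groups. Of the sites at starts, 298 sites were at the start of 1 gene and 49 at starts of more than 1 gene. Of the 111 sites away from protein-coding starts, 7 (6.31%) were within 1 kb of a long non-coding RNA start, against 6.22% of such sites with both proteins and 2.75% of those with neither.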
